A study of Homo sapiens with 8 samples.

Results

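The 40 genes described here encode cytosolic heat shock proteins, the co-chaperones that work with them, 2 heat shock factors and the 8 subunits of the CCT chaperonin. They were taken as a list of names matched to Entrez numbers, and are 40 of the 22653 entries listed in the files. All 40 had counts in each of the 8 libraries and passed the filter on low counts, which left 17503 entries for testing. The RNA came from U937, an established human monocytic line, and all 8 libraries carried a disruption of SLC19A1 (SLC19A1-/-). One derived line had a doxycycline-inducible (tet) Flag-tagged SLC7A1 and the other a tet Flag-tagged SLC7A2; both genes encode cationic amino acid transporters. Each line was sampled without doxycycline (no dox) and after 24 h in 1 µg/mL doxycycline (dox), with 2 libraries in each of the 4 groups, numbered 1 and 2 in the titles. The labels say neither whether a line is 1 clone, nor whether the libraries of a group are separate cultures, nor what the numbers stand for. A p-value therefore measures only the spread between these libraries, which may be technical. No line without a construct received dox, so the drug and the transporter cannot be told apart in a dox difference.

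Cytosolic chaperones hold, fold and sort newly made or damaged proteins. HSP70 proteins bind exposed hydrophobic stretches in a cycle driven by ATP, in which J-domain proteins bring the client and speed ATP hydrolysis, and HSP110 and BAG-domain proteins release the nucleotide. HSP90 takes over partly folded kinases, receptors and other clients with the help of its own co-chaperones, and the CCT ring folds actin and tubulin. In proteotoxic stress the factor HSF1 forms trimers and binds heat shock elements, in which the unit GAA and its complement TTC alternate, in the promoters of many of these genes. U937 cells, like other leukaemic lines, express several of these chaperones without any heat shock.

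The promoters of the 4 members that hold the longer, 3-unit pattern, of HSPA1A and of CDC37, whose level differed least between libraries, are shown because the alternating GAA and TTC units can be read in them directly. They are RefSeq sequences on GRCh38.p14, 250 bases before to 50 bases after the annotated start, written 5′ to 3′ on the strand of the gene. Capitals mark every match to GAANNTTC or TTCNNGAA, where N is any base; both are their own reverse complement, so each covers both strands. The HSPA8 window is chr11:123062087-123062386 on the minus strand. The CHORDC1 window is chr11:90223000-90223299 on the minus strand. The DNAJA1 window is chr9:33025023-33025322 on the plus strand. The DNAJB6 window is chr7:157336754-157337053 on the plus strand. The HSPA1A window is chr6:31815293-31815592 on the plus strand. The CDC37 window is chr19:10403493-10403792 on the minus strand.
HSPA8: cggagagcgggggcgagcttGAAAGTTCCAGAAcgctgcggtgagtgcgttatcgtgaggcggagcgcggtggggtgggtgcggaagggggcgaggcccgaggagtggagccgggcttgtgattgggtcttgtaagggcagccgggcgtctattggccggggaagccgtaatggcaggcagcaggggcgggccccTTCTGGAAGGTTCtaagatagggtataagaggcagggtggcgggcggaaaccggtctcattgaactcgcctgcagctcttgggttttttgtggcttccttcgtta
CHORDC1: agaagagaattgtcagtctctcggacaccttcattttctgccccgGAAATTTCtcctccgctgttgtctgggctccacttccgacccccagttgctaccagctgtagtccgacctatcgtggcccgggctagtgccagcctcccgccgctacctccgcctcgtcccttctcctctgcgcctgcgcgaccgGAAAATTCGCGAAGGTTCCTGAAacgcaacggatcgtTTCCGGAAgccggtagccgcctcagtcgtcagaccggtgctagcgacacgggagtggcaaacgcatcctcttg
DNAJA1: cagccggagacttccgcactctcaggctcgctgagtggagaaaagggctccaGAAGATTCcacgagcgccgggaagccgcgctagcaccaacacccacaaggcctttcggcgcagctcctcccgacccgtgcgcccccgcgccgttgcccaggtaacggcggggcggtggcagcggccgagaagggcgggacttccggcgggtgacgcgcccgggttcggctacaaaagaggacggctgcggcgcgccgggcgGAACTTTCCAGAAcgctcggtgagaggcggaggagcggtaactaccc
DNAJB6: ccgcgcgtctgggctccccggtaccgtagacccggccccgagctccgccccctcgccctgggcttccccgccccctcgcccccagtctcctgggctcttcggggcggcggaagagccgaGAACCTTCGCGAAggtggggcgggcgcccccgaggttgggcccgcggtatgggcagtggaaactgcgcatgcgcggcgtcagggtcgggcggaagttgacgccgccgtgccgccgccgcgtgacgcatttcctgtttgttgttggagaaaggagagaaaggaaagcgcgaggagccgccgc
HSPA1A: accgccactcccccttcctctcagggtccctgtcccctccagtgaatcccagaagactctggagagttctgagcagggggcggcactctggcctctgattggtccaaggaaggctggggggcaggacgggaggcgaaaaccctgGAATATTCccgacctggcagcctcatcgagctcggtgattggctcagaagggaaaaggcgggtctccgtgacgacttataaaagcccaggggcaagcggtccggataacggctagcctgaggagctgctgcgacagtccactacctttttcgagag
CDC37: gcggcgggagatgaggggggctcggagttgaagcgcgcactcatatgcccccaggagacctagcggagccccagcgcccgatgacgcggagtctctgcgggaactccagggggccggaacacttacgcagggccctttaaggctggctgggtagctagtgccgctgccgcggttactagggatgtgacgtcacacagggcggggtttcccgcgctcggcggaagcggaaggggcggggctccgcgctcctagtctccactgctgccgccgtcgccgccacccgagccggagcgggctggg

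HSPA8 held the 3-unit pattern at 2 places, the matches starting at -230 and -55 relative to the start. CHORDC1 held an unbroken run of GAA and TTC units from -60, in which 3 overlapping 3-unit matches were found. DNAJA1 had one starting at 3 and DNAJB6 one at -131. HSPA1A had only a 2-unit match, GAATATTC, at -106, and CDC37 had no match to any of the patterns in this window. Over all members, 35 of 40 matched a RefSeq promoter; HSPA14, HSF1, FKBP4, ST13 and CCT6A are named only. The 3-unit pattern (GAANNTTCNNGAA or TTCNNGAANNTTC, which are each other's reverse complement) was present in 4 of these 35 windows, against 0.487% of all 27305 promoters of the same length. GAANNTTC alone was in 9 of 35 (6.87% of all promoters) and TTCNNGAA in 5 of 35 (7.84%), and every 3-unit match contains both. The list was defined as HSF1-inducible chaperones, co-chaperones and the CCT chaperonin. These shares are therefore not independent of how the genes were chosen. A match is a description of letters, not of a bound site. A single window was read per gene, and any other start of a gene was not searched.

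The 8 libraries held 17309132 to 18441833 expected counts, and the 4 numbered 2 had slightly more (18336629 to 18441833) than the 4 numbered 1 (17309132 to 17906852). The induced constructs were read in their own lines. The SLC7A1 construct had 14976 and 6721 counts in dox libraries 1 and 2 of its line and 0 to 5 elsewhere. The SLC7A2 construct had 4569 counts in dox library 1 and 91235 in dox library 2 of its line, an 18.7-fold gap per total count, and 10 and 177 without dox. SLC19A1 had 2205 to 2989 counts in every library, and since no SLC19A1-intact library was compared, this checks nothing about the disruption. Library number went with other differences. Both number 2 libraries of the SLC7A2 line stood apart on the first principal component of all entries (55.3 and 68.1, against -52.7 to -3.67 for the other 6), which held 27.4% of the variance. All 12 markers of the monocytic line were listed, with a summed TPM of 1854 to 4042. ELANE, AZU1, CD33, CD4, SPI1, CEBPA and LYZ were at 81.1 TPM or more in all libraries, while MPO (0.21 to 0.47 TPM) and CD14 (0 to 0.19 TPM) were near 0. Of the T cell markers 3 of 6 were listed (summed TPM 0 to 0.31; CD3E, CD3G and TRAC were not), and the 5 epithelial markers summed to 1.74 to 6.26. Of the B cell markers CD79A was at 20.6 to 34.1 TPM, while the others listed were below 1 and MS4A1 was not listed.

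Levels are given as TPM, a share of transcripts corrected for gene length, so that genes can be set beside each other. Summed over the 40 genes, TPM ran from 5101 to 10889. HSP90AB1, the constitutive HSP90, had the highest mean (1586), followed by HSPA8 (838), the constitutive HSP70, HSPB1 (707), a small heat shock protein, and CCT3 and CCT7 (510 and 496). The inducible forms were far lower: HSPA1B averaged 44.9 and HSPA1A 21.9 TPM. The least abundant members were DNAJB4 (1.69) and HSPA4L (1.75). HSPA1A and HSPA1B lie side by side on chromosome 6 (31815543 to 31817942 and 31827738 to 31830254, GRCh38.p14). Of their 150-base windows 67.1% and 66.0% are shared with the other gene, so the split of counts between them is uncertain; summed, they were called in the same comparison as each alone. Whether counting used strand is not stated in the sources, and exons of other genes overlap 44.2% of the exon bases of BAG2, 36.5% of HSPA1B, 30.1% of CCT5 and 20.0% of UNC45A, so reads of these pairs cannot be told apart.

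In most of the 40 genes the same libraries were the highest and the lowest. HSPA8, the cognate HSP70 that also strips clathrin coats, had 281 and 266 TPM in the SLC7A1 line number 1 (no dox, dox), 605 and 629 in its number 2, 751 and 739 in the SLC7A2 line number 1, and 1786 and 1651 in its number 2. HSPH1, the main HSP110, had 8.58 and 11.2, then 25.1 and 20.9, then 23.3 and 26.3, then 53.1 and 75.8 TPM in the same order. CHORDC1, a co-chaperone of HSP90 with zinc-binding CHORD domains, had 3.08 and 3.07, 5.77 and 5.27, 6.11 and 6.00, and 13.8 and 20.7. In all 3 genes the number 2 libraries of the SLC7A2 line were the highest and the number 1 libraries of the SLC7A1 line the lowest, with the other 4 between them. HSP90AA1, the inducible HSP90, had 136 and 169.6, 286 and 280.1, 307 and 334, and 478 and 585. DNAJA1, a J-domain partner of HSP70, had 42.7 and 43.5, 64.8 and 71.9, 70.2 and 70.0, and 145.5 and 174. HSPA1A had 7.42 and 10.8, 16.5 and 17.8, 19.9 and 20.6, and 38.4 and 43.7, with the same libraries highest and lowest as in the genes above. HSPA1B had 21.0 and 24.8, 35.6 and 36.6, 35.3 and 40.7, and 78.2 and 87.2. Over all 40 genes, both number 2 libraries of the SLC7A2 line were the 2 highest in 32 (15.8% of all tested entries). Both number 1 libraries of the SLC7A1 line were the 2 lowest in 30 (12.2%), and both held in 26 (4.88%). The libraries between had no common order. Number 2 of the SLC7A1 line was wholly below number 1 of the SLC7A2 line in 18 members (24%) and wholly above it in 6 (24.8%). These orders were looked at after the values were seen.

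**Figure D1:**
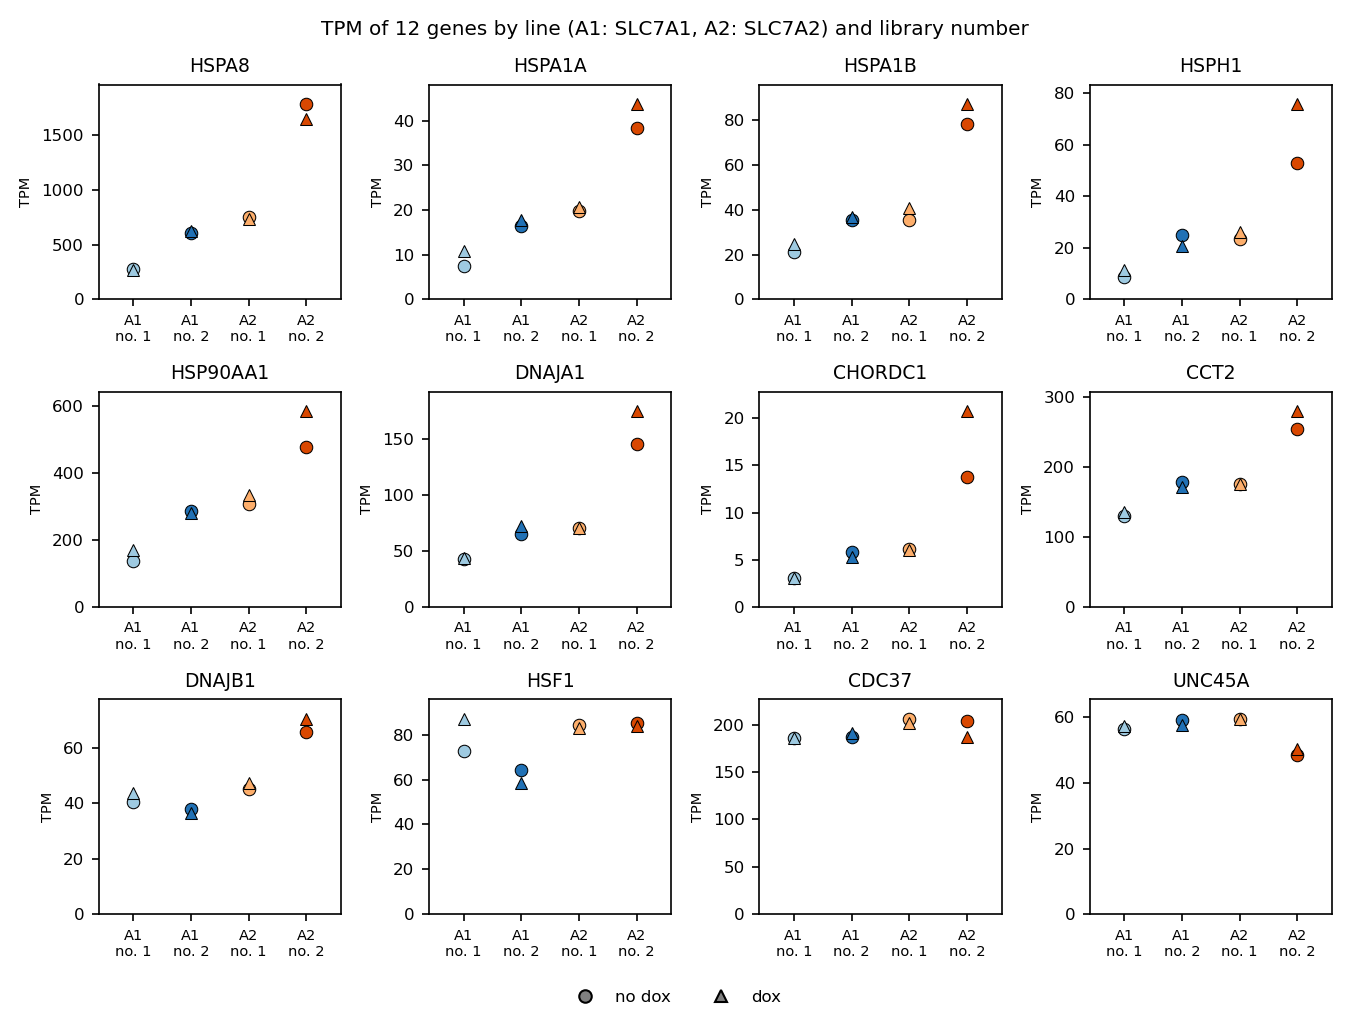
TPM of 12 of the genes (y axis, from 0, a scale of its own for each gene) in the 8 libraries, grouped on the x axis by line (A1, SLC7A1; A2, SLC7A2) and number; circles are no dox and triangles dox. HSPA8 reaches 1786 TPM in the number 2 libraries of the SLC7A2 line against 266 to 281 in the number 1 libraries of the SLC7A1 line, while CDC37 stays at 186 to 206.

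Not every member followed this order. The ratio of the highest to the lowest library, in CPM (counts scaled to a common library total after TMM), ran from 1.28 for CDC37 to 6.72 for HSPH1. CDC37, which loads kinases onto HSP90, was at 186 to 206 TPM in all libraries. UNC45A, which folds myosin with HSP90, was at 56.5 to 59.5 TPM in 6 libraries and lower, at 48.4 and 50.2 (no dox, dox), in the number 2 libraries of the SLC7A2 line. HSF1, the master factor of the response, was at 58.6 to 87.1 TPM, with its lowest values, 64.1 and 58.6, in the number 2 libraries of the SLC7A1 line. DNAJB1, a stress-inducible J-domain protein, was lowest there too (37.9 and 36.6) and highest in the number 2 libraries of the SLC7A2 line (65.7 and 70.5).

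HSP90AB1, HSPB1 and the CCT subunits, all abundant, varied less than HSPA8. HSP90AB1 was at 1231 and 1169 TPM in the SLC7A1 line number 1, 1635 and 1629.7 in its number 2, 1583 and 1545 in the SLC7A2 line number 1, and 1982 and 1913 in its number 2. HSPB1 was at 422 and 475, 586 and 614, 792 and 778, and 977 and 1009.7 TPM. Summed over the 8 CCT subunits, TPM was 1836 and 1949, 2406 and 2429, 2531 and 2546, and 3222 and 3387. The ring as a whole thus had its lowest values in the number 1 libraries of the SLC7A1 line and its highest in the number 2 libraries of the SLC7A2 line. Among the subunits CCT2 ran from 129.6 to 280.0 TPM, CCT6A from 101.1 to 269 and TCP1 from 165.6 to 373. The other co-chaperones had ranges of 157 to 355 TPM for STIP1, which bridges HSP70 and HSP90, 137 to 327 for AHSA1, which activates the HSP90 ATPase, 158 to 349 for PTGES3, a co-chaperone that holds HSP90 closed, and 77.7 to 121 for ST13, a partner of HSP70. BAG1 ran from 17.8 to 31.6 TPM, BAG2 from 3.39 to 9.10, BAG3 from 6.03 to 11.8 and the factor HSF2 from 2.79 to 5.54. Among the J-domain genes DNAJC7 ran from 68.5 to 118, DNAJB6 from 32.3 to 83.8, DNAJC2, which acts at the ribosome, from 27.1 to 55.6, DNAJA2 from 15.1 to 34.9 and DNAJA4 from 4.36 to 9.05 TPM.

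**Figure D2:**
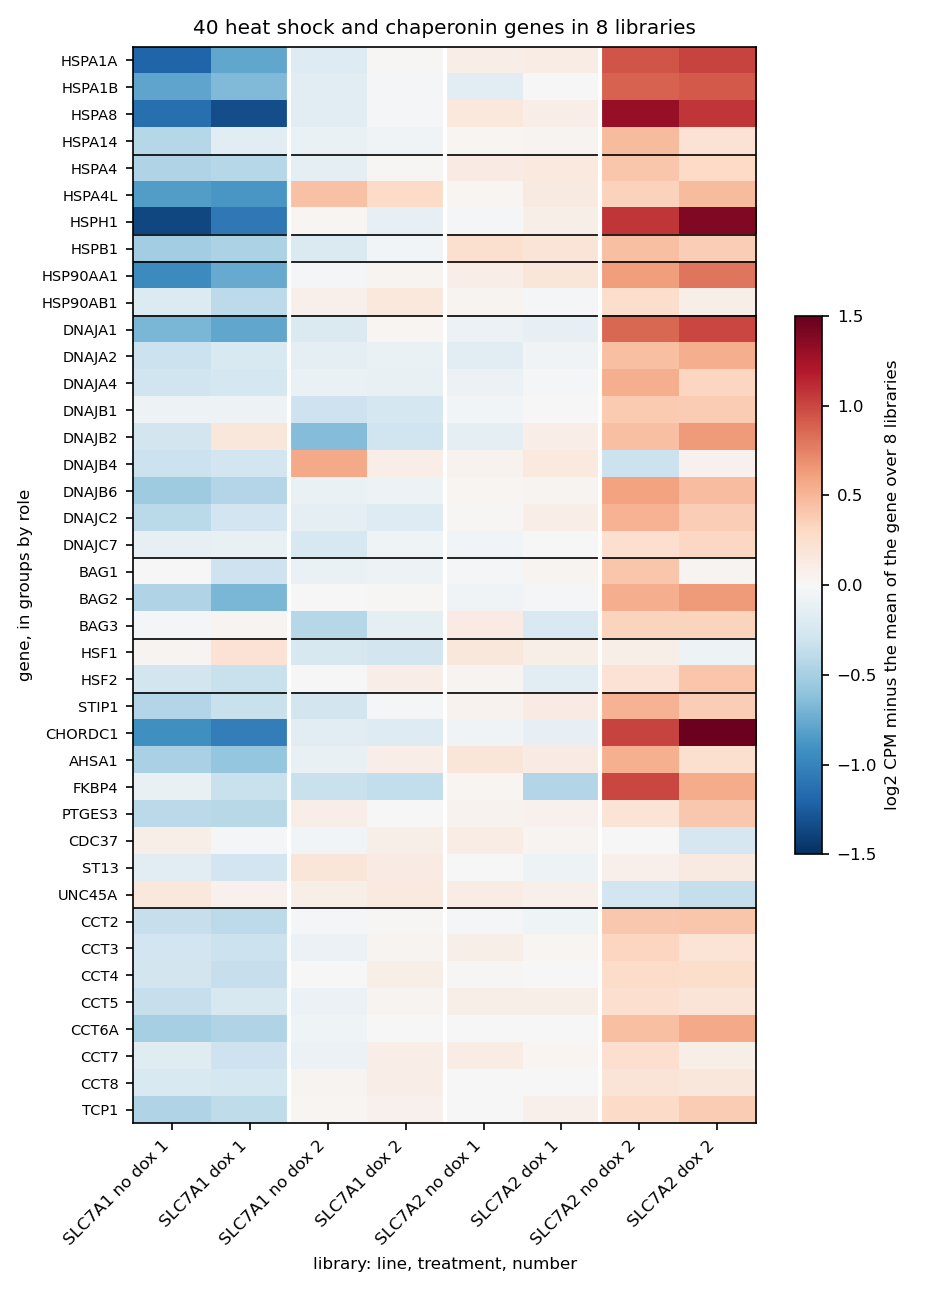
Each row is a gene, in groups by role, each column a library (line, treatment, number), and the colour is log2 CPM minus the mean of the gene over the 8 libraries. Most rows run from blue in the number 1 libraries of the SLC7A1 line to red in the number 2 libraries of the SLC7A2 line; the rows of CDC37, UNC45A, HSF1 and DNAJB4 are among those that do not.

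The dox comparisons ask whether these genes differ with dox, that is with the drug and the induced construct together. No member passed the test in the SLC7A1 line, in the SLC7A2 line, in the difference between these effects or across both lines: the lowest adjusted p of a member was 0.99991 (edgeR quasi-likelihood F test, Benjamini-Hochberg). In each of the 4 comparisons 0% of all 17503 entries were called, and 0 members had an unadjusted p under 0.05. The shares of entries at an unadjusted p under 0.05 were 1.27%, 1.28%, 1.27% and 1.49%. DESeq2 also called 0 members in each, against 0.0514%, 0.0571%, 0.114% and 0.00571% of entries. The median log2 fold change of the 40 was 0.04 in the SLC7A1 line and -0.02 in the SLC7A2 line, beside -0.00 and 0.01 over all entries, and the 2 line effects differed by a median of -0.05 (0.01). In the SLC7A1 line HSPA1A was 0.28 ± 0.48 (log2 fold change ± SE, 2 libraries an arm), HSPA1B 0.13 ± 0.44, HSP90AA1 0.11 ± 0.39, DNAJB1 0.02 ± 0.21, HSPH1 -0.02 ± 0.62 and TCP1, the alpha subunit of CCT, 0.05 ± 0.23. DNAJC7, a J-domain protein that also binds HSP90, was 0.09 ± 0.16 and was the only member higher in both dox libraries of that line than in both no dox libraries, against 11.1% of all entries; FKBP4 alone was lower without overlap (11%). In the SLC7A2 line HSPA1A was 0.05 ± 0.47, HSPA1B 0.08 ± 0.44, HSP90AA1 0.14 ± 0.39, DNAJB1 0.00 ± 0.21, HSPH1 0.25 ± 0.62 and TCP1 0.08 ± 0.23. CCT7, the eta subunit of CCT, was -0.13 ± 0.16 and was the only member with both dox libraries below both no dox libraries (9.7%), and DNAJB4, a J-domain protein, the only one with both above (10.2%). The SE of a single member was 0.15 to 0.62 in each line, and 0.07 to 0.28 with library number as a block within a line.

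Between matched libraries of 1 number and line, HSPA1A was higher with dox in all 4 pairs (1.34, 1.15, 1.01 and 1.05 times, CPM), as were HSPA1B, HSP90AA1, DNAJA2, DNAJB2, DNAJC7 and TCP1, 7 members in all against 7.7% of entries. FKBP4, an HSP90-bound immunophilin, was lower in all 4 (0.855, 0.980, 0.719 and 0.736), 1 member against 7.07%. In the difference between the line effects CHORDC1 was 0.38 ± 0.84 and BAG3, a BAG-domain protein that links HSP70 to autophagy, -0.32 ± 0.36. In the same comparison HSPA1A was -0.23 ± 0.67, HSPA1B -0.05 ± 0.62, HSP90AA1 0.03 ± 0.56, DNAJB1 -0.02 ± 0.29, HSPH1 0.27 ± 0.88 and TCP1 0.03 ± 0.32. Across both lines (4 libraries an arm) HSPA1A was 0.16 ± 0.32 and BAG1, a nucleotide exchange factor of HSP70, -0.15 ± 0.11. HSPA1B was 0.11 ± 0.29, HSP90AA1 0.12 ± 0.26, DNAJB1 0.01 ± 0.13, HSPH1 0.12 ± 0.41 and TCP1 0.06 ± 0.15. With a block for library number within a line, a dox effect is set against the spread between same-numbered pairs; it called 0 members in any of the 4 comparisons (0.0114%, 0.00571%, 0% and 0.0171% of entries).

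Setting the SLC7A2 line against the SLC7A1 line over both treatments (4 libraries an arm) asks how the lines stand apart whatever the dox. Of the 40 genes 37 had a higher fitted value in the SLC7A2 line (49.5% of entries), with a median log2 fold change of 0.38 against -0.00 over all entries. No member passed the edgeR test (0% of all entries were called, and the lowest adjusted p of a member was 0.315). An unadjusted p under 0.05 was still reached by 27 of 40, against 12.8% of entries. Of the 4978 entries with an Entrez number and mean log2 CPM of at least 5, 919 reached it and 2835 had a higher fitted value. In 15 members no library of the SLC7A2 line overlapped the SLC7A1 line, against 4.35% of entries, and 0 were lower without overlap (5.11%). The 4 cytosolic HSP70 genes had the highest group median, 0.97, with HSPA8 at 1.31 ± 0.39 (adjusted p = 0.321, edgeR) and mean CPM of 1947 against 786. The HSP110 gene HSPH1 was 1.27 ± 0.42, HSPA1A 1.07 ± 0.32, HSPA1B 0.87 ± 0.29 and HSP90AA1 0.82 ± 0.26, with DNAJA1 at 0.88 ± 0.31 and DNAJB1 at 0.38 ± 0.13. The co-chaperones were at 0.44 in the median, from CHORDC1 at 1.26 ± 0.40 down to UNC45A at -0.21 ± 0.12, and the small heat shock protein HSPB1 was 0.62 ± 0.13. All 8 CCT subunits were higher, but by less: their median was 0.31, with TCP1 at 0.36 ± 0.15.

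The lines were also set side by side between libraries of the same treatment and number. The median log2 ratio of the 40 was 0.38 (no dox, 38 of 40 higher) and 0.36 (dox, 36 higher) in number 1, and 0.55 (36 higher) and 0.39 (35 higher) in number 2. In 28 members the SLC7A2 line was higher in all 4 such pairs, against 12.8% of entries, and in 0 it was lower in all 4 (14.1%). HSPA8 was 2.46 and 2.71 times as high in number 1 (no dox, dox) and 2.77 and 2.13 times in number 2, by CPM. HSPH1 was 2.54 and 2.23 times as high in number 1 and 2.05 and 2.85 times in number 2, and HSPA1A 2.46 and 1.86 times and then 2.19 and 1.99 times. DNAJB1 differed more by number, at 1.03 and 1.05 times in number 1 and 1.63 and 1.56 times in number 2. With both number 2 libraries of the SLC7A2 line left out, the arms are unbalanced for number, since both stay in the SLC7A1 line, and the members' median of 0.21 in that fit does not measure the line difference at matched number. Other lists moved in the same comparison. All 8 immediate early genes had lower fitted values in the SLC7A2 line (median log2 difference -0.74), as did 7 of 11 tested monocytic markers (median -0.38), and the 3 fibroblast markers tested had higher ones (median 2.11). In edgeR 0 of these were called, while DESeq2 called 3 monocytic markers and 1 fibroblast marker, and their part in the chaperone difference was not tested. The fibroblast markers summed to 15.6 TPM in no dox library 2 of the SLC7A2 line and to 0.66 to 2.19 in the other libraries, so that value rests mainly on 1 library. The immediate early genes summed to 248 and 216 TPM (no dox, dox) in number 1 of the SLC7A1 line, against 110 and 118 in the SLC7A2 line. In number 2 their sum was higher in the SLC7A2 line, at 129 and 125 against 103 and 104 TPM, though FOS and EGR1 were still lower there.

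Other settings gave other counts: DESeq2 called 6 members, all higher (HSPB1, STIP1, HSPA4, DNAJC2, HSPA1A and HSP90AA1; 0.977% of entries were called higher by it). With library number as a block within each line edgeR called 28 members higher and UNC45A lower, against 4.95% and 6.54% of entries. That fit judges the line difference only against the spread between the no dox and dox libraries of a number, and takes the gap between numbers, described next, out of the spread.

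Library number is the last factor in the titles. The number 2 libraries had higher values for most of the 40 genes in each line. The fit by line judges the gap between numbers only against how that gap differs between no dox and dox. It counts the no dox and dox libraries of a number as independent, which the labels do not state. In the SLC7A2 line 12 of the 40 rose from number 1 to number 2 (edgeR, adjusted p under 0.05), against 1.04% of all entries called higher, and 0 fell (2.23%). DESeq2 called 22 higher (6.99%) and UNC45A lower (8.79%), and edgeR on Entrez entries alone 16 higher (7.81%) and UNC45A lower (9.79%). The 12 called in the main edgeR fit included the HSP70 genes HSPA1A, HSPA1B and HSPA8, the exchange factor HSPH1 and HSP90AA1. The others were the J-domain genes DNAJA1, DNAJA2 and DNAJB6, the co-chaperones CHORDC1 and FKBP4, and the CCT subunits CCT2 and CCT6A. CHORDC1 rose by 1.33 ± 0.16 (adjusted p = 0.0413, edgeR), a gap between 14.8 and 14.2 CPM in number 1 (no dox, dox) and 31.0 and 42.7 in number 2. HSPH1 rose by 1.19 ± 0.13 (adjusted p = 0.0413, edgeR), HSPA8 by 1.06 ± 0.11 (adjusted p = 0.0413) and DNAJA1 by 1.04 ± 0.11 (adjusted p = 0.0413). HSPA1B rose by 0.98 ± 0.08 (adjusted p = 0.0361, edgeR), HSPA1A by 0.87 ± 0.10 (adjusted p = 0.0413), DNAJA2 by 0.61 ± 0.08 (adjusted p = 0.0419) and HSP90AA1 by 0.57 ± 0.08 (adjusted p = 0.0419). The other 4 rose by 0.46 to 0.98. DNAJB1 (0.41 ± 0.08, adjusted p = 0.0586, edgeR) and TCP1 (0.29 ± 0.07, adjusted p = 0.0781) did not pass. The median over the 40 was 0.34, against 0.00 over all entries, and 35 had both number 2 libraries above both number 1 libraries (30% of entries), while HSF1, CDC37 and UNC45A had both below (30.3%). An unadjusted p under 0.05 was reached by 28 of 40, a share to set against 28.1% of entries. Shares over all entries include entries with low counts. Of the 4978 entries with an Entrez number and mean log2 CPM of at least 5, 1962 reached it and 255 were called in either direction.

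All 12 calls rest on each of the 4 libraries of that line: leaving out any 1 of them left 0 calls, while leaving out any library of the SLC7A1 line left 12. Several other measures moved with number in this line. The SLC7A2 construct had 91235 counts in dox library 2 against 4569 in dox library 1, and 177 against 10 without dox. HSPA8 was 1.96 times as high in number 2 with dox and 2.21 times without. Of the 12 monocytic markers 11 were tested, with 9 lower in number 2 and 2 higher (median log2 difference -0.37), and 3 called, all lower, against 2.23% of entries. Those called were ELANE, AZU1 and CSF3R: ELANE had 733 and 541 TPM against 1600 and 1574, AZU1 447 and 387 against 826 and 797, and CSF3R 36.9 and 36.4 against 58.8 and 60.4 TPM (log2 difference -1.47 ± 0.19, -1.11 ± 0.15 and -0.85 ± 0.08; adjusted p = 0.0419, 0.0419 and 0.0413, edgeR). The summed TPM of 8 fibroblast markers was 15.6 in number 2 no dox and 0.66 to 2.19 in the other libraries, led by COL1A1 and COL3A1 (5.47 and 5.28 TPM). LYZ, another of the list, was at 275 and 226 TPM in number 2 against 227 and 208 in number 1. Of the 8 immediate early genes 5 had higher and 3 lower fitted values in number 2 (median 0.30). EGR1 was the only one called, at 1.61 and 1.79 TPM against 4.90 and 5.06, while JUN was at 6.68 and 6.30 against 3.75 and 4.61. The part of these in the chaperone differences was not tested. Fewer cells of a type and less RNA per cell cannot be told apart in these bulk samples.

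In the SLC7A1 line no member passed (0.0514% of entries were called in either direction, 9 in all), with 27 of 40 at an unadjusted p under 0.05 against 19.8%. The values were again above 0 in 33 of 40 (49.7% of entries), with a median of 0.36, against -0.00 over all entries. Of the 4978 entries with an Entrez number and mean log2 CPM of at least 5, 1438 had such a p and 2642 a value above 0. HSPA4L, a low-level HSP110 relative, was 1.22 ± 0.14 (adjusted p = 0.0669, edgeR), HSPH1 1.17 ± 0.14 (adjusted p = 0.0693) and HSPA8 1.14 ± 0.11 (adjusted p = 0.0597). HSPA1A was 0.90 ± 0.10 (adjusted p = 0.0683, edgeR), HSP90AA1 0.87 ± 0.08 (adjusted p = 0.0588), HSPA1B 0.63 ± 0.08 (adjusted p = 0.0799) and TCP1 0.46 ± 0.07 (adjusted p = 0.0864), while DNAJB1 was -0.21 ± 0.08 (adjusted p = 0.236). Both number 2 libraries were above both number 1 libraries in 31 members (27.5% of entries) and below them in DNAJB1, DNAJB2, BAG3 and HSF1 (27.8%). DESeq2 called 22 members higher (4.31% of entries) and HSF1 lower (3.78%), and edgeR on Entrez entries alone called 12, all higher (1.96%). In this line 7 of 8 immediate early genes had lower fitted values in number 2 (median -1.09), as did 10 of 11 monocytic markers (median -0.17). The summed TPM of the immediate early genes was 248 and 216 in number 1 (no dox, dox) against 103 to 129 in the other 6 libraries, and FOSB had 8.66 and 10.4 TPM in number 1 and 0.34 and 0.47 in number 2 (log2 difference -4.60 ± 0.32, adjusted p = 0.0474, edgeR). The SLC7A1 construct was lower in dox library 2 than in dox library 1 (6721 against 14976 counts), the opposite of the SLC7A2 construct in its line. The part of these in the chaperone differences was not tested.

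**Figure D3:**
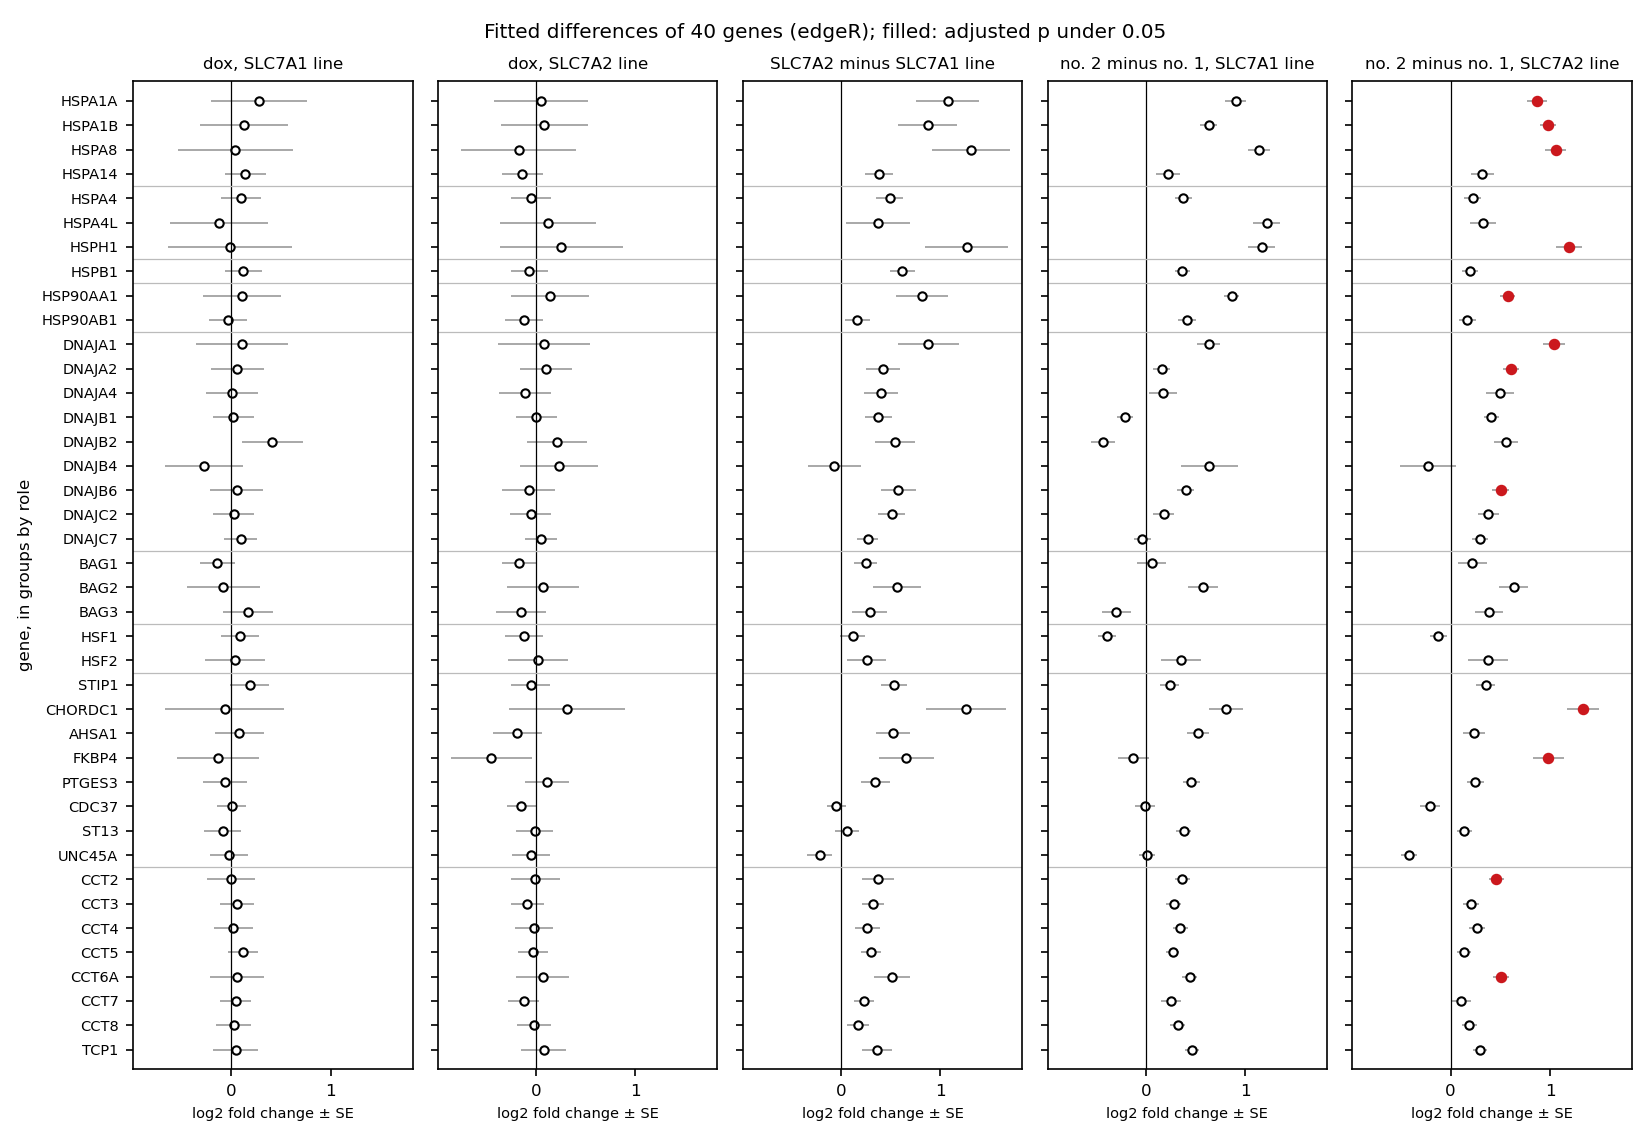
Fitted log2 fold changes ± SE of the 40 genes (x axis, one row each, grouped by role) for dox in each line, for the SLC7A2 minus the SLC7A1 line, and for number 2 minus number 1 in each line; filled points have an adjusted p under 0.05 in edgeR. The dox values scatter around 0 with wide errors, and only the number comparison in the SLC7A2 line has filled points, 12 of them. The dox and line fits leave the gap between numbers in the spread and the number fits do not, so the error bars are not alike.

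Taken over both lines, number 2 exceeded number 1 in all 4 groups for 30 of 40 members against 14.7% of entries, and was below it in all 4 for 1, HSF1 (14.7%). In a fit with number shared by all groups 37 of 40 were above 0 (49.5%) and the median was 0.30 (-0.00 over all entries), but 0 passed edgeR (0.00571% of entries were called) against 23, all higher, by DESeq2 (3.34%). In that fit 29 of 40 had an unadjusted p under 0.05 (19.3% of entries). Of the 4978 entries with an Entrez number and mean log2 CPM of at least 5, 1421 had such a p and 2483 a value above 0. All 4 number 2 libraries were above all 4 number 1 libraries in 6 members, against 5.15% of entries. These were HSPA4L, HSP90AB1, BAG2, ST13, CCT2 and CCT8, and 0 members had all 4 below (5.27%). HSPH1 was 1.18 ± 0.10 (adjusted p = 0.0657, edgeR), HSPA8 1.10 ± 0.08 (0.0553), HSPA1A 0.89 ± 0.09, HSPA1B 0.81 ± 0.10, HSP90AA1 0.72 ± 0.09, CCT2 0.41 ± 0.07, TCP1 0.38 ± 0.07, HSP90AB1 0.29 ± 0.08 and DNAJB1 0.10 ± 0.14. The 8 CCT subunits were all above 0, with a median of 0.28. Some members did not share the direction of number in the 2 lines. DNAJB1, DNAJB2, a J-domain protein with ubiquitin-interacting motifs, and BAG3 were below 0 in the SLC7A1 line (-0.21 ± 0.08, -0.43 ± 0.12 and -0.29 ± 0.15) and above 0 in the SLC7A2 line (0.41 ± 0.08, 0.56 ± 0.12 and 0.39 ± 0.14). FKBP4 was -0.13 ± 0.16 and 0.98 ± 0.15, and DNAJC7 -0.03 ± 0.08 and 0.30 ± 0.08. DNAJB4, the least abundant member, went the other way, at 0.64 ± 0.28 and -0.23 ± 0.28. UNC45A was near 0 in the SLC7A1 line (0.01 ± 0.08) and below 0 in the SLC7A2 line. The test of the difference between the lines called 0 members in edgeR (0.0743% of entries). It had 11 members at an unadjusted p under 0.05, against 20% of entries and 1293 of those 4978. In edgeR it was 0.62 ± 0.11 for DNAJB1 (adjusted p = 0.0946), 0.98 ± 0.17 for DNAJB2 (0.0916), 1.11 ± 0.22 for FKBP4 (0.104) and 0.68 ± 0.21 for BAG3 (0.178). DESeq2 called DNAJB1, DNAJB2 and FKBP4 higher and UNC45A lower in it (3.47% and 4.13% of entries). The difference was -0.03 ± 0.14 for HSPA1A, 0.34 ± 0.12 for HSPA1B, -0.29 ± 0.11 for HSP90AA1, 0.02 ± 0.19 for HSPH1 and -0.17 ± 0.10 for TCP1, 0 of which passed.

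**Figure D4:**
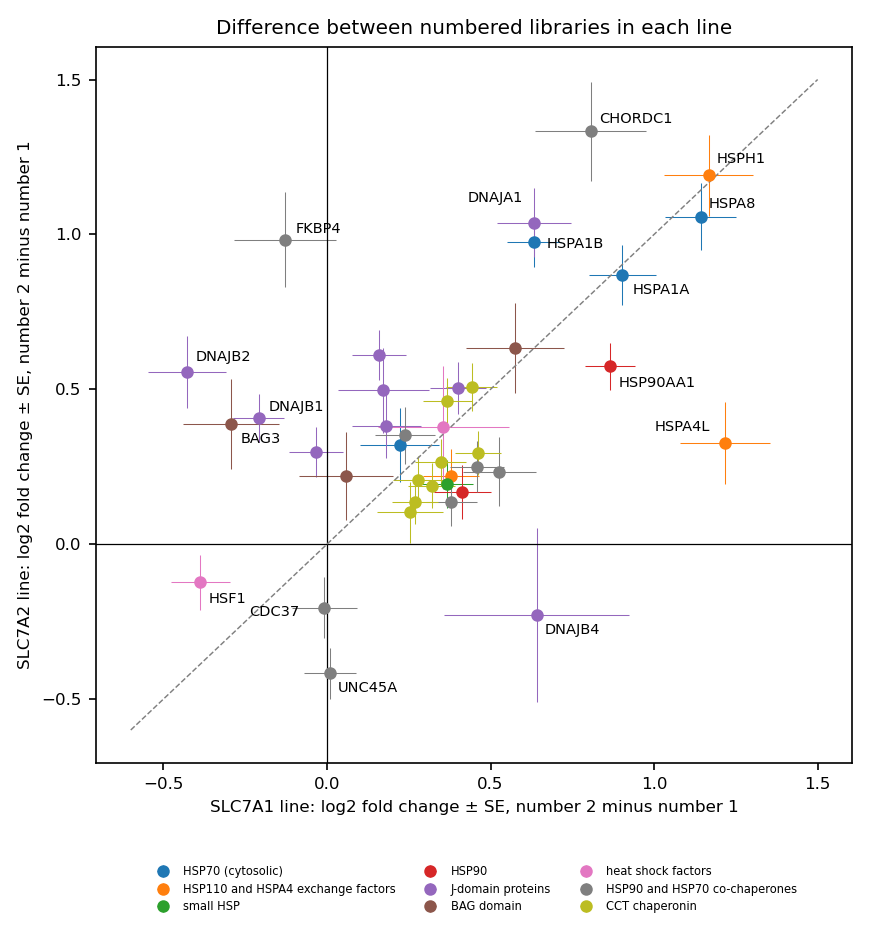
The log2 difference ± SE between number 2 and number 1 in the SLC7A1 line (x axis) against that in the SLC7A2 line (y axis) for the 40 genes, coloured by role, with a dashed line of equal values. HSPH1, HSPA8 and HSPA1A lie near the dashed line, at 1.17, 1.14 and 0.90 on the x axis. DNAJB1, DNAJB2, BAG3 and FKBP4 lie below 0 in the SLC7A1 line and above 0 in the SLC7A2 line, and DNAJB4 the other way round.

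The 4 genes with a 3-unit pattern in the promoter (HSPA8, CHORDC1, DNAJA1 and DNAJB6) had a median log2 difference of 1.07 between the lines (0.58 to 1.31), against 0.37 for the 31 other members with a promoter (-0.21 to 1.27). For number across groups these medians were 0.96 and 0.30, and for dox in the SLC7A1 line 0.05 and 0.04. The ranges overlapped. HSPH1 and HSP90AA1 had no match to any of the patterns in this window, the 2-unit ones included, but any other start of these genes was not searched. They were at 1.27 and 0.82 between the lines and at 1.18 and 0.72 between numbers.

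Chaperones of other compartments give the scale for these values. The median of 15 mitochondrial chaperone genes was 0.06 between the lines and 0.06 for number across groups, and that of 18 chaperones of the endoplasmic reticulum was 0.30 and 0.31, near the 0.38 and 0.30 of the 40 cytosolic genes. For number, the endoplasmic reticulum list was at 0.42 in the SLC7A1 line and at 0.02 in the SLC7A2 line. The cytosolic genes were at 0.36 and 0.34. In edgeR 0 of the 33 genes of the 2 lists were called in any of these comparisons. DESeq2 called, in either direction, 10 of 18 endoplasmic reticulum and 5 of 15 mitochondrial genes for number in the SLC7A1 line. There it called 23 of the 40 cytosolic genes and 8.08% of entries. For number in the SLC7A2 line it called 8 of 18, 8 of 15 and 23 of 40 (15.8% of entries). Between the lines it called 2, 0 and 6 (1.99%). Of 51 further cytosolic chaperone and proteostasis genes 45 were tested, with medians of 0.12 between the lines and 0.03 for number. The only one called in any of the 9 comparisons was DNAJC5, the J-domain protein of synaptic vesicles and secretory granules, at 0.55 ± 0.09 for number in the SLC7A2 line (adjusted p = 0.0493, edgeR).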

How the data were processed

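Poly(A) RNA of 8 U937 libraries was read as paired ends. The files hold expected counts, TPM and FPKM per entry, deposited by the authors and made with RSEM 1.3.1, per the submitters' processing notes, which also name HISAT, Bowtie2 2.3.4.3, DESeq2 1.4.5 and hg38 with no role. The TPM values the authors deposited were used for levels only and FPKM were not used. An entry missing from a library's file was taken as 0. Of 22653 entries, 15386 have Entrez numbers (15340 matched to a symbol), 7264 are unnamed loci (6.56 to 7.25% of counts) and 3 are constructs.

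Expected counts were rounded, scaled by TMM and filtered (filterByExpr, minimum count 10, total 15), leaving 17503 entries. The main test was edgeR 4.0.16 (quasi-likelihood F test, R 4.3.3, with limma 3.58.1), with Benjamini-Hochberg at 0.05 over all entries. Each fit used all 8 libraries. The dox and line comparisons were fitted without library number, and the number comparisons in separate fits with it. The gap between numbers is thus in the spread of the former and not of the latter, and their SE are not alike. Steps were tested on simulated data. Alternatives were DESeq2 1.42.0, its size factors, no filter, Entrez entries only, a replicate block, and each library left out. CPM are counts scaled to a common library total after TMM. Depth was 17309132 to 18441833, so 3 counts are 0.163 to 0.173 CPM. Members and lists were chosen with earlier results of these data known. Named genes were the called members (at most 8 a comparison), or up to 2 of mean log2 CPM of at least 4 with the largest change among those without overlap, and HSPA1A, HSPA1B, HSP90AA1, DNAJB1, HSPH1 and TCP1 throughout; further members are named by role and were chosen after their values were seen.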

Additional observations from a re-analysis of the deposited data

Results flagged for a closer look

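The test of the difference between the lines in the gap from number 1 to number 2 passed for 4 members in DESeq2 and for 0 in edgeR. In DESeq2 it was 0.62 (log2, SLC7A2 line minus SLC7A1 line) for DNAJB1 (adjusted p = 0.000542), 0.99 for DNAJB2 (0.0161), 1.12 for FKBP4 (0.0481) and -0.42 for UNC45A (0.0154). DNAJB1 had 37.9 and 36.6 TPM in number 2 of the SLC7A1 line against 40.5 and 43.9 in number 1, and 65.7 and 70.5 against 45.3 and 47.3 in the SLC7A2 line. The 2 tools differ in the call, and the cause was not tested.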

How the results depend on the processing

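With 2 libraries a group, leaving 1 out leaves an arm with a lone sample that is assumed to vary like the other groups. The 40 members had 0 calls for dox in every setting run, and small dox values changed sign. Reversals from other settings were HSPH1 for dox in the SLC7A1 line (0.063 with a replicate block, 0.054 with the block within a line, 0.058 in DESeq2 with that block), DNAJB1 for dox in the SLC7A2 line (-0.0011 in DESeq2 and with its size factors in edgeR, -0.00923 with no filter), HSP90AA1 for the difference of dox effects (-0.0001571 with the block within a line, -0.0044 in DESeq2 with it) and HSPA1A for the difference of number between lines (0.23 when summed with HSPA1B). The calls for the line went from 0 to 6 in DESeq2, 15 with a replicate block, 29 with the block within a line and 34 in DESeq2 with that block, and the median went to 0.21 without both number 2 libraries of the SLC7A2 line, a fit whose arms are unbalanced for number (0.38 and 0.36 between number 1 libraries alone). Calls for number across groups were 23 in DESeq2, 2 with no filter and 5 on Entrez entries alone; in the SLC7A1 line 23, 2 and 12; in the SLC7A2 line, from 12, 23, 9 and 17, of which UNC45A was the 1 called lower in DESeq2 and on Entrez entries; and for the difference of number between lines 4 in DESeq2 and 3 on Entrez entries alone. DESeq2 gave no adjusted p for DNAJB4 in number across groups and in the SLC7A1 line. The fits without both number 2 libraries and DESeq2 with the block were chosen after seeing the data.

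Leaving out each library in turn, the member medians ranged from -0.18 to 0.22 for dox in the SLC7A1 line, -0.19 to 0.19 in the SLC7A2 line, -0.25 to 0.18 for their difference, -0.0602 to 0.10 across lines, 0.30 to 0.46 for the line and -0.03 to 0.04 for the difference of number between lines. Calls ranged from 0 to 1 for number across groups, 0 to 3 in the SLC7A1 line and 0 to 12 in the SLC7A2 line. For dox in the SLC7A1 line the ranges were -0.18 to 0.87 for HSPA1A, -0.23 to 0.48 for HSPA1B, -0.34 to 0.65 for HSP90AA1, -0.0925 to 0.14 for DNAJB1, -0.57 to 0.84 for HSPH1 and -0.19 to 0.31 for TCP1. In the SLC7A2 line they were -0.46 to 0.53, -0.44 to 0.70, -0.20 to 0.43, -0.20 to 0.23, -0.53 to 0.89 and -0.0812 to 0.23 for HSPA1A, HSPA1B, HSP90AA1, DNAJB1, HSPH1 and TCP1. For the difference they were -0.82 to 0.26, -0.57 to 0.57, -0.51 to 0.48, -0.22 to 0.21, -0.59 to 0.91 and -0.23 to 0.27 for HSPA1A, HSPA1B, HSP90AA1, DNAJB1, HSPH1 and TCP1, and -0.62 to 1.01 for CHORDC1. Across lines they were -0.0360 to 0.38, -0.10 to 0.35, -0.0502 to 0.34, -0.0694 to 0.11, -0.22 to 0.47 and -0.0311 to 0.17 for HSPA1A, HSPA1B, HSP90AA1, DNAJB1, HSPH1 and TCP1. For number across groups DNAJB1 ranged from -0.00992 to 0.21, and for the difference of number between lines HSPA1A from -0.15 to 0.0705 and HSPH1 from -0.20 to 0.24. Over all named members 353 values kept direction and call under the other alternatives, 56 passed the threshold and 9 changed sign; with single omissions 431 kept both, 32 lost the call, 9 passed the threshold and 80 changed sign.

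Pairing by replicate number was checked from the deviations from the group means: the correlation between same-numbered libraries was 0.197 in the SLC7A1 line and 0.311 in the SLC7A2 line, and -0.0237 to 0.150 across lines, so they deviate together within a line but not in every pair across lines. The replicate block changed no dox call of a member.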
